A study of Rattus norvegicus with 10 samples.

Results

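Enpp6, Bcas1, Fyn, Itpr2, Cd9 and Sirt2, 6 of the 23487 genes counted, are genes whose expression is associated with the premyelinating stage of the oligodendrocyte (OL). They were chosen by name, and each symbol matched a single gene ID: ENSRNOG00000009660 for Enpp6, ENSRNOG00000012906 for Bcas1, ENSRNOG00000000596 for Fyn, ENSRNOG00000001804 for Itpr2, ENSRNOG00000019556 for Cd9 and ENSRNOG00000020102 for Sirt2. The series asked how miR-145 bears on OL differentiation, and held 10 RNAseq libraries, 2 in each of 5 groups. All came from primary cultures of Sprague-Dawley rat cortex, started from pups in the first days after birth. Oligodendrocyte progenitor cells (OPCs) were shaken off mixed glia and kept in FGF2 and PDGFAA, or moved to a differentiation medium with triiodothyronine and CNTF to become OLs. OLs received a miR-145-5p mimic (OL miR-145), that mimic together with a miR-219 mimic (OL miR-145+miR-219), or a scrambled mimic (OL miR-ctl), and were lysed 5 days after transfection. OPCs received a miR-145-5p inhibitor (OPC anti-miR-145) or a scrambled inhibitor (OPC anti-miR-ctl) and were lysed after 24 h. All oligonucleotides were used at 30 nM. The treatment tag of the 2 OL miR-145 libraries also names miR-219, whereas their titles name miR-145 alone, and the titles were followed. The study's methods paragraph on sequencing names lentivirus in place of mimics. The study's reporting summary takes a replicate of primary culture to be the culture of a single mouse, and does not name rat cultures. The labels of these libraries give only a number, and p-values measure the spread between the 2 libraries of a group.

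An OPC that leaves the cell cycle passes through a premyelinating stage, in which it extends many processes and begins to make the enzymes, adhesion molecules and cytoskeletal regulators of the myelinating cell, before most of the myelin proteins have reached their peak. Enpp6 encodes a choline-specific phosphodiesterase and is among the earliest genes of newly forming OLs. Bcas1 encodes a protein found in premyelinating and early myelinating OLs, and Itpr2 encodes an IP3 receptor, a calcium channel of the endoplasmic reticulum that marks newly formed cells of the lineage. Fyn, a kinase of the Src family, relays contact with axons and matrix to the cytoskeleton and to local translation of Mbp mRNA. Cd9, a tetraspanin that organises membrane proteins, and Sirt2, a deacetylase of tubulin, are made by maturing OLs and are present in myelin.

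The oligonucleotides that set the groups apart act through mature miRNAs, which are shown here because every OL and OPC comparison of the treatments turns on them. The mature miR-145-5p mimicked or inhibited, and miR-219a-5p as the annotated form of miR-219, are printed from RefSeq on GRCr8 with the seed, bases 2 to 8, in capitals.
rno-miR-145-5p: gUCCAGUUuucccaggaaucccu
rno-miR-219a-5p: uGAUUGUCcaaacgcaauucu
The seeds of the miRNAs differ from each other. These libraries were made from mRNA, and neither the levels of the mature miRNAs nor sites for them in the 6 transcripts were analysed here.

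Promoters are shown for Enpp6, Fyn and Cd9, the 3 genes whose windows held any of the motifs listed below. RefSeq promoters were matched by symbol for 5 of the 6 genes, all but Bcas1. The 250 bases before the annotated start on GRCr8, which is not the build of the counts, are printed 5′ to 3′ on the strand of the gene. Capitals mark any match on either strand to the E-boxes CAGCTG and CAGATG, the SOX core motifs ACAAAG and ACAATG, or the TCF/LEF motifs CTTTGAT and CTTTGAA. On the opposite strand the first SOX motif shares part of its letters with the TCF/LEF motifs.
Enpp6, chr16:52026729-52026978, minus strand: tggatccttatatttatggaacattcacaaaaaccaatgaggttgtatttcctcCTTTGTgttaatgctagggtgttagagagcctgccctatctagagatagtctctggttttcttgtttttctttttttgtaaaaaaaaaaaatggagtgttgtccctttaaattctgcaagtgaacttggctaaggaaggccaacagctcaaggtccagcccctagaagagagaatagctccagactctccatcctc
Fyn, chr20:44322414-44322663, plus strand: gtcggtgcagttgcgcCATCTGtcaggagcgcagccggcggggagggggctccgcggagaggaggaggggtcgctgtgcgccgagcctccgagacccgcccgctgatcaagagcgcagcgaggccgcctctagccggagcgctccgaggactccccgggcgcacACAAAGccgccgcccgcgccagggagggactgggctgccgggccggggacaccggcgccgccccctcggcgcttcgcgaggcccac
Cd9, chr4:159975359-159975608, minus strand: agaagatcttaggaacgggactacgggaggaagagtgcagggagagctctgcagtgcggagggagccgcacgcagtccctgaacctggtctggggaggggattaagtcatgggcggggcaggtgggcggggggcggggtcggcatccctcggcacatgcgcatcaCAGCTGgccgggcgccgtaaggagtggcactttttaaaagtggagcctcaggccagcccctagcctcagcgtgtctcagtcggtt
Enpp6 and Fyn, 2 of the 5 genes, held ACAAAG, against 16.3% of all promoters of that length in the table. CAGCTG was found only in the Cd9 promoter among the 5, against 4007 of all 33469 promoters, and CAGATG only in that of Fyn, against 14.0%. No match to ACAATG or to the TCF/LEF motifs was found in the 5, against 11.1% and 7.58% of all promoters. The Itpr2 and Sirt2 windows held none of the motifs.

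The counts assigned to genes summed to between 33505706 and 42684206 per library. Levels are given as CPM, counts scaled to the size of the library, after TMM normalization over the 10 libraries, and differences as log2 fold changes with their standard errors (SE) from edgeR's quasi-likelihood test, called at an adjusted p under 0.05 over all genes tested. All 6 genes passed the filter on low counts in all 5 comparisons. Replicates of every group differed by more than counting noise. Of 8 OPC markers, 5 were called lower in control OLs than in control OPCs by edgeR, with Cspg4 at -2.93 and Cspg5 at -2.49 on the log2 scale, and 2 were called higher, Gpr37l1 at 1.40 and C1ql1 at 0.36. The myelin genes Ugt8 and Cldn11 were called higher in control OLs. Astrocyte markers, Gfap among them, summed to 5428 to 13438 CPM in the OL libraries and to 399.7 to 667.5 CPM in the OPC libraries, so the OL libraries also held RNA of astrocyte genes.

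All 6 genes were higher in control OLs than in control OPCs, and Enpp6 differed the most. Enpp6 was read at 0.585 and 0.301 CPM in the OPC anti-miR-ctl libraries, which is 25 and 11 counts, and at 179 and 261 CPM in the OL miR-ctl libraries. It was close to the limit of detection in progenitors and plainly present in each OL library. The log2 difference was 8.91 (SE 0.34, adjusted p = 6.32e-05 by edgeR). Sirt2 was at 213 and 209 CPM in the OPC libraries and at 2936 and 2794 CPM in the OL libraries, a log2 difference of 3.76 (SE 0.09). Cd9 went from 92.9 and 100 CPM to 1129 and 1102 CPM, a log2 difference of 3.52 (SE 0.09). Unlike Enpp6, both were already expressed in OPCs.

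Bcas1 and Fyn, too, were well expressed before differentiation. Bcas1 was at 525 and 559 CPM in control OPCs and at 3021 and 2086 CPM in control OLs, with a log2 difference of 2.23 (SE 0.19). Fyn was at 473 and 474 CPM in control OPCs and at 1413 and 1225 CPM in control OLs, with a log2 difference of 1.47 (SE 0.10). Itpr2 had the smallest difference, from 111 and 101 CPM to 304 and 201 CPM, with a log2 difference of 1.25 (SE 0.20, adjusted p = 0.00474 by edgeR). The groups did not overlap for any of the 6 genes. All 6 were called higher, where 28.8% of the 15721 genes tested were called higher by edgeR and 26.6% by DESeq2, and 41.2% of all genes had both OL libraries above both OPC libraries. The median of the 6 log2 differences was 2.88, against 0.01 over all genes. Medium, time since transfection and the control oligonucleotide also differ between these groups, so stage and these conditions cannot be told apart. In whole cultures, fewer cells of a type and less RNA per cell cannot be told apart either.

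**Figure D1:**
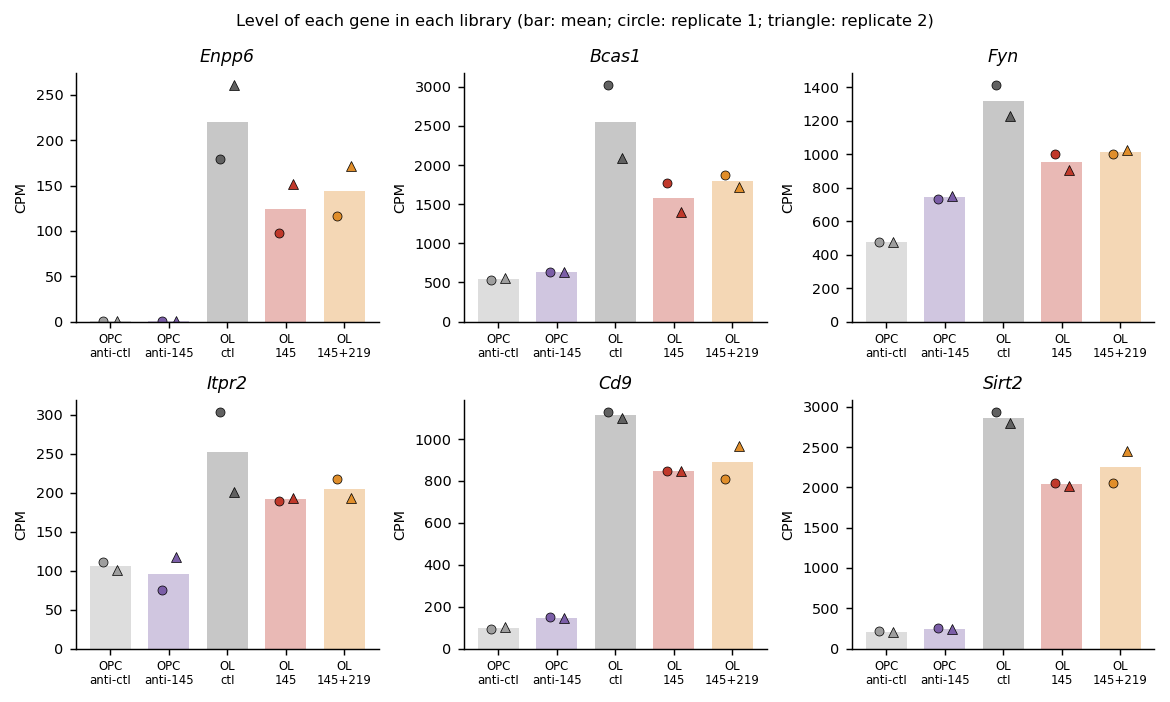
Level of each of the 6 genes in CPM (y axis, linear, from 0, a separate scale per panel) in the 5 groups (x axis). Bars are means of 2 libraries, circles are libraries numbered 1 and triangles libraries numbered 2. Every OL library lies above every OPC library for each gene, and the OL miR-ctl bar is the highest of the 5 in each panel.

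Most other genes known from this stage also rose. Of 17 other premyelinating genes measured, 16 were called higher in control OLs and 1, Cemip2, a hyaluronidase, was called lower. Nfasc, which encodes the adhesion molecule neurofascin, was higher by 4.67 on the log2 scale, and Lims2, an adaptor of integrin adhesions, by 3.62. Among 14 mature myelin genes, 9 were called higher and 0 lower, with a median of 2.58.

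Close relatives of the 6 genes did not all follow them. Fyn rose, while 5 of 6 other Src family kinases were called lower in control OLs, against 4511 of all 15721 genes tested. Yes1 had a log2 difference of -0.17 (adjusted p = 0.117 by edgeR). Src was lower by 2.23 on the log2 scale, from 419 ± 8.8 to 89.6 ± 16 CPM (SD, n = 2). Lyn and Fgr, kinases best known from myeloid cells, had log2 differences of -2.90 and -2.64. Lck and Blk, known from lymphocytes, did not exceed 1.31 CPM in these libraries. The microglial markers Itgam and Ptprc were also called lower in control OLs, by -3.41 and -3.03, while Trem2 was called higher by 1.13, and the summed microglial list was 1139 and 1060 CPM in control OPCs against 436.7 and 646.3 CPM in control OLs. The part of microglial RNA in the differences of Lyn and Fgr was not tested.

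Itpr1, another IP3 receptor, was called in the opposite direction to Itpr2 and Itpr3 in the same direction. Both were low, with Itpr1 at 14.2 and 13.5 CPM in control OPCs against 9.60 and 9.09 CPM in control OLs, and Itpr3 between 1.45 and 2.66 CPM. Those 2 receptors were singled out after their values were seen. In the wider list of 18 genes of IP3 and store-operated calcium signalling, 6 were called higher and 8 lower, among them the phospholipase Plce1 with 2.49 and the phospholipase Plcg2 with -2.19. In the Enpp family, Enpp2 (autotaxin), Enpp3, Enpp4 and Enpp5 were called higher, by 0.77 to 3.07, and Enpp1 lower, from 6.23 to 1.55 CPM. Enpp3, with the largest of these differences, was barely detected, at 0.094 and 0.027 CPM in control OPCs against 0.35 and 0.77 CPM in control OLs. Slc44a1, a choline transporter, was higher by 2.54, from 268 to 1560 CPM, in a list of 14 choline and phosphatidylcholine genes of which 8 were called higher and 1 lower. Among tetraspanins and Cd9 partners, 7 of 14 were called higher and 3 lower. Tspan2, a tetraspanin of the OL lineage, was higher by 4.95, and Cd82 was lower, at -1.64. Of 9 genes in the sirtuin and tubulin list, 5 were called higher, among them the mitochondrial Sirt3 at 1.39, and 2 lower, Nmnat2 at -0.95 and Nampt at -0.56, both enzymes of NAD synthesis.

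**Figure D2:**
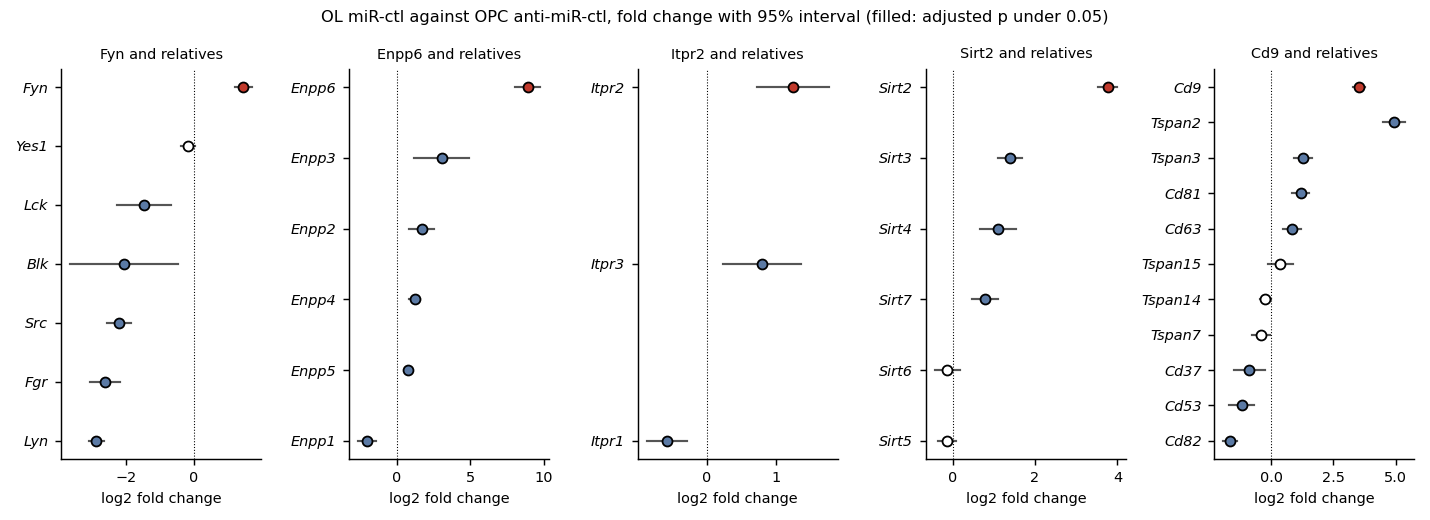
Log2 fold change of OL miR-ctl against OPC anti-miR-ctl (x axis, a separate scale per panel) for 5 of the genes in red and their family members in blue, with 95% intervals. Filled points have an adjusted p under 0.05 by edgeR. Fyn stands to the right of 0, whereas the 6 other Src family kinases plotted stand to its left.

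In OLs given the miR-145 mimic, all 6 genes were lower than in the control in both libraries. By edgeR none of the differences passed the threshold without a term for the replicate number. The calls with such a term are given in the last section. Enpp6 was at 97.8 and 151 CPM after miR-145, against 179 and 261 CPM in OL miR-ctl. Its log2 difference was -0.81 (SE 0.28, 95% interval -1.51 to -0.12, adjusted p = 0.320 by edgeR). The higher miR-145 library thus lay just under the lower control library. Bcas1 was at 1770 and 1398 CPM against 3021 and 2086 CPM, a log2 difference of -0.68 (SE 0.23, adjusted p = 0.321 by edgeR). Leaving out 1 library moved the difference of Enpp6 to between -1.17, without the second miR-145 library, and -0.52, without the second control, and that of Bcas1 to between -0.94, without the second control, and -0.39, without the first control. Fyn was at 1002 and 908 CPM against 1413 and 1225 CPM, a log2 difference of -0.46 (SE 0.15, adjusted p = 0.293 by edgeR).

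Sirt2 and Cd9 had the tightest replicates. Sirt2 was at 2057 and 2024 CPM after miR-145 and at 2936 and 2794 CPM in the control, with a log2 difference of -0.48 (SE 0.14, adjusted p = 0.252 by edgeR). Cd9 was at 846 and 847 CPM against 1129 and 1102 CPM, a log2 difference of -0.39 (SE 0.12, adjusted p = 0.293 by edgeR). For both genes the gap between the groups was several times the gap within either group. Itpr2 was at 189 and 193 CPM against 304 and 201 CPM, a log2 difference of -0.39 (SE 0.21, adjusted p = 0.466 by edgeR), which became -0.06 without the first control library.

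Both miR-145 libraries lay below both control libraries for 6 of 6 genes, against 24.4% of the 15461 genes tested. The unadjusted p was under 0.05 for 5 of the 6 genes, all but Itpr2, and for 13.4% of all genes. No gene of the table was called by edgeR in this comparison (0%), with 2067 at an unadjusted p under 0.05. DESeq2 called Sirt2 alone among the 6 (adjusted p = 0.00942), where it called 0.737% of all genes lower, and gave the others adjusted p values from 0.0545 for Cd9 to 0.537 for Itpr2. The median of the 6 log2 differences was -0.47, against -0.01 over all genes.

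No gene of the lineage and stage lists was called by edgeR in this comparison. Of 17 other premyelinating genes, 16 were lower, 12 of them in both libraries, with a median of -0.46. Tcf7l2, a Wnt effector expressed transiently at this stage, was at 46.6 and 44.1 CPM against 68.5 and 66.0 CPM, and Lims2 was at 33.3 and 29.5 CPM against 50.6 and 46.5 CPM. Of 14 mature myelin genes, 7 were lower and 7 higher, with a median of 0.03. Gal3st1, which adds sulfate to a myelin lipid, had a log2 difference of -0.61 (SE 0.16), and Mal, a proteolipid of myelin, had 1.81 (SE 0.98). Mal was low, at 5.83 and 14.2 CPM after miR-145 against 0.55 and 5.28 CPM in the control. Of the 6 lineage factors, Sox10 (-0.59), Zfp488 (-0.87), Olig2 (-0.37) and Myrf (-0.36) were lower in both libraries, while Olig1 (0.12) and Nkx6-2 (0.19) overlapped between the groups. DESeq2 called Sox10 and Zfp488 lower, and 5 of the 17 other premyelinating genes. Of 8 OPC markers measured, 4 were lower and 4 higher, with a median of -0.08.

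Markers of other cell types moved beside these genes. All 10 astrocyte markers were higher after miR-145, 9 of them in both libraries, with a median of 0.88, and their summed level was 13438 and 9084 CPM against 6455 and 5428 CPM. Gja1 (log2 difference 1.68) and Aqp4 (1.14) had the smallest p. DESeq2 called 6 of the 10 astrocyte markers higher, 1 of the 12 microglial and 3 of the 6 fibroblast and mural markers. Of all 15461 genes tested it called 535 higher, and 22.9% of all genes were higher in both libraries. No astrocyte marker was at 0 in an OL library. All 12 microglial markers were higher, 4 of them in both libraries, with sums of 450.2 and 1114 CPM against 436.7 and 646.3 CPM. All 6 fibroblast and mural markers measured were higher in both libraries, with sums of 63.7 and 94.1 CPM against 36.4 and 25.0 CPM. The part of these cell types in the levels of the 6 genes was not tested.

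**Figure D3:**
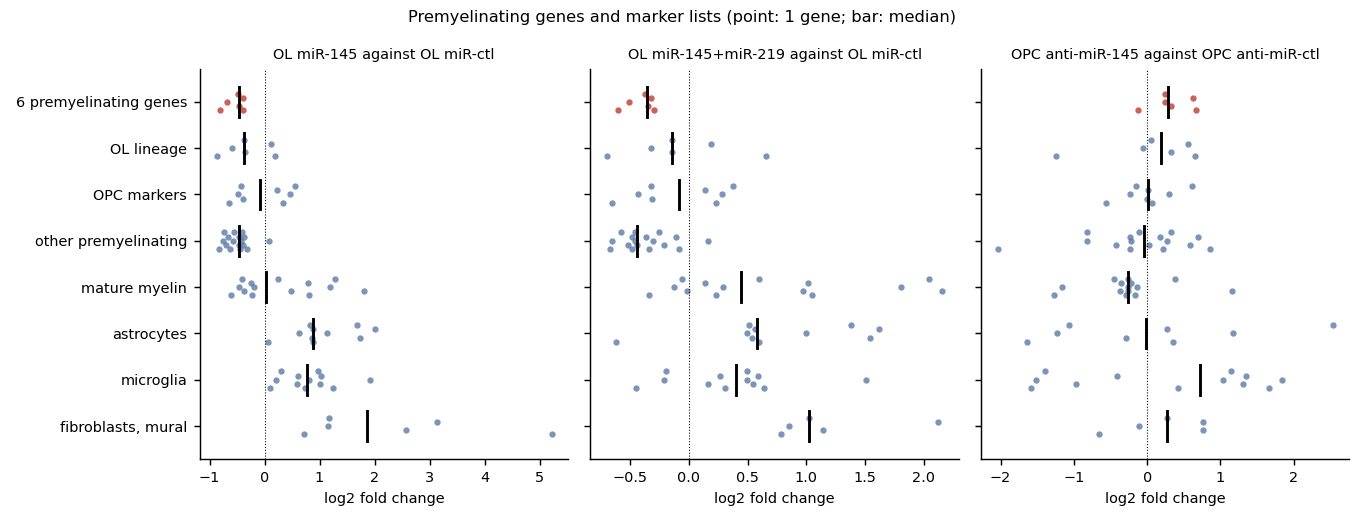
Log2 fold change (x axis, a separate scale per panel) of the 6 premyelinating genes, in red, and of the genes of 7 marker lists, in blue, in 3 comparisons. Each point is a gene and each black bar a median. With miR-145 the 6 genes and 16 of the 17 other premyelinating genes lie left of 0 (medians -0.47 and -0.46), mature myelin genes lie on both sides and all astrocyte markers lie to the right.

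In the pathways around the 6 genes, differences ran in both directions and none passed the threshold of edgeR. DESeq2 called 1 of 11 Fyn inputs higher and 1 lower, and 1 of 13 Fyn outputs higher. It also called 3 of 18 calcium genes, 1 of 14 choline genes and 1 of 14 tetraspanins and partners higher. None was called in the Src, Enpp and sirtuin lists. Of all 15461 genes tested, DESeq2 called 535 higher and 114 lower. Of 11 inputs to Fyn, Erbb2, a receptor for neuregulin, was lower (-0.62, SE 0.13), and Cntn1, the contactin that couples to Fyn, was higher (0.55, SE 0.15). Among 13 Fyn outputs 10 were lower and 3 higher. Arhgap35, a GTPase-activating protein that Fyn phosphorylates, was at 732 and 585 CPM against 1259 and 785 CPM (-0.63, SE 0.26), and Vav3, an exchange factor for small GTPases, was higher (0.86, SE 0.21). Of 6 other Src family kinases, 4 were higher and 2 lower, with Lyn at 0.53 (SE 0.16), Src at 0.36 (SE 0.17), Yes1 at -0.12 (SE 0.11), Fgr at 0.14, Lck at -0.08 and Blk, which was barely detected, at 1.72.

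Itpr1 was higher after miR-145, at 14.3 and 15.9 CPM against 9.60 and 9.09 CPM (0.70, SE 0.16), as were 14 of 18 genes of the calcium list. In the Enpp family Enpp2 had -0.70 (SE 0.35) and overlapped between groups, and Enpp1 had 0.33, Enpp3 -0.66, Enpp4 0.08 and Enpp5 0.13. Enpp3 was barely detected, at 0.29 and 0.40 CPM after miR-145 against 0.35 and 0.77 CPM in the control. Slc44a1 was lower at -0.48 (SE 0.18) and Gdpd1, a lysophospholipase D, at -0.58 (SE 0.16), whereas 10 of the 14 choline genes were higher, among them the lipase Pnpla7 at 0.61 (SE 0.10). Tspan2 had -0.41 (SE 0.21), while Ptgfrn, a partner of Cd9, had 0.64 (SE 0.16). Among 9 sirtuin and tubulin genes 7 were lower and 2 higher, among them Sirt7 at -0.32 (SE 0.12) and Nmnat2, an enzyme of NAD synthesis, at 0.77 (SE 0.24).

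With miR-219 given beside miR-145, the 6 genes were again lower than in the control, each by less than with miR-145 alone. This comparison uses the same 2 control libraries, so the values are set side by side and are not independent. Enpp6 was at 116 and 171 CPM, with a log2 difference from OL miR-ctl of -0.61 (SE 0.27). Bcas1 was at 1871 and 1718 CPM (-0.51, SE 0.22), and Fyn at 1002 and 1026 CPM (-0.38, SE 0.14). All 3 lay below both control libraries.

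Cd9 was at 809 and 969 CPM (-0.32, SE 0.15) and Sirt2 at 2050 and 2451 CPM (-0.34, SE 0.16), also below both control libraries. Itpr2 was at 218 and 193 CPM (-0.29, SE 0.22), and its groups overlapped. Both libraries were lower for 5 of 6 genes, against 19.4% of the 15436 genes tested. No gene of the table was called by edgeR (0%), with 956 at an unadjusted p under 0.05, of which 1, Fyn, was among the 6 (adjusted p = 0.801 by edgeR). DESeq2 called none of the 6, where it called 0.214% of all genes lower. Other premyelinating genes had a median of -0.44, with 16 of 17 lower, and mature myelin genes a median of 0.45, with 10 of 14 higher. Of the 10 astrocyte markers, 9 were higher, and their sums were 11184 and 6521 CPM.

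Compared directly, the groups with and without miR-219 differed little in the 6 genes. Log2 differences of OL miR-145+miR-219 from OL miR-145 ran from 0.06 for Cd9 to 0.19 for Enpp6, all positive. The 95% intervals ran from -0.57 to 0.96 for Enpp6, from -0.25 to 0.59 for Bcas1 and from -0.20 to 0.38 for Itpr2. The groups were apart for Fyn alone, whose lower combined library, at 1002 CPM, barely exceeded the higher miR-145 library, against 13.6% of all 15501 genes higher in both libraries. No gene was called by edgeR (0%), with 228 at an unadjusted p under 0.05, and DESeq2 called 9 genes (0.0581%) but none of the 6.

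**Figure D4:**
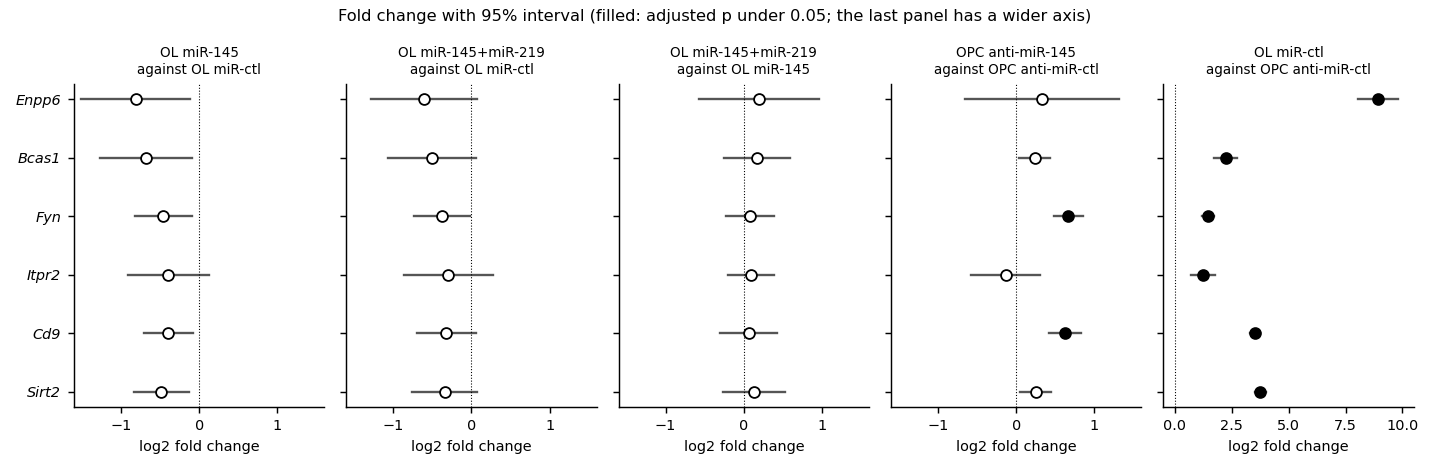
Log2 fold change (x axis) of the 6 genes in the 5 comparisons, with 95% intervals. Filled points have an adjusted p under 0.05 by edgeR, and the last panel has a wider axis. All 6 points lie left of 0 in both comparisons with OL miR-ctl, where none is filled, and Fyn and Cd9 are filled in the OPC comparison.

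In OPCs given the miR-145 inhibitor for 24 h, Fyn and Cd9 were higher than with its control. Fyn was at 735 and 750 CPM with the inhibitor and at 473 and 474 CPM with its control, a log2 difference of 0.66 (SE 0.08, adjusted p = 0.00110 by edgeR). Cd9 was at 148 and 147 CPM against 92.9 and 100 CPM, a log2 difference of 0.63 (SE 0.09, adjusted p = 0.00208 by edgeR). The gap between groups far exceeded the gap within them for both genes. The levels stayed under those of every OL library.

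The other 4 genes did not pass. Bcas1 was at 628 and 636 CPM against 525 and 559 CPM (0.24, SE 0.08, adjusted p = 0.0753 by edgeR). Sirt2 was at 257 and 238 CPM against 213 and 209 CPM (0.25, SE 0.09, adjusted p = 0.0707 by edgeR). For these 2 genes both inhibitor libraries were higher than both controls. Enpp6, at 23 and 24 counts against 25 and 11, had a log2 difference of 0.33 with an interval of -0.65 to 1.31, so a change was not detectable at this depth. Itpr2 was at 74.5 and 117 CPM against 111 and 101 CPM (-0.13, SE 0.19), and its inhibitor libraries lay on either side of the controls.

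Both libraries were higher for 4 of the 6 genes, against 32.8% of the 15496 genes tested, and 2 of the 6 were called higher, against 12.1% by edgeR and 11.9% by DESeq2, which called the same 2 genes. In all, edgeR called 4348 genes in this comparison, 1874 higher and 2474 lower. The median of the 6 log2 differences was 0.29, against 0.00 over all genes. The 16 other premyelinating genes tested were divided: 4 were called higher and 3 lower, with a median of -0.05. Nkx2-2, a homeodomain factor of differentiating progenitors, was called higher at 0.86 and Bmp4 at 0.69, whereas Tmem163, a zinc transporter, was called lower at -2.04.

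Genes around Fyn and Cd9 were called in both directions: 1 of 11 Fyn inputs was called higher and 1 lower, 4 of 13 outputs higher and 2 lower, and 4 of 14 tetraspanins and partners higher and 3 lower. Itga6, the laminin-binding integrin subunit that signals through Fyn, was called higher, from 33.3 and 32.2 CPM to 102 and 109 CPM. Vav3 was called higher at 2.39 and Bcar1, an adaptor phosphorylated by Src kinases, at 0.58, while Mapt, the tau protein that binds Fyn, was called lower at -0.43 and Rock2 at -0.42. Of 6 other Src family kinases, Fgr (-1.84) and Lyn (-1.47) were called lower, and Src at 0.19, Yes1 at -0.23, Lck at -0.87 and Blk at -1.48 did not pass (adjusted p = 0.0650 to 0.140 by edgeR). Itga3, an integrin partner of tetraspanins, was called higher at 2.36, from 2.04 to 10.4 CPM, and Tspan14 at 0.62, while Cd82 was called lower at -1.30. In the Enpp family, Enpp4 (-0.62) and Enpp5 (-0.41) were called lower, and Enpp1 (-0.20) and Enpp2 (-0.24) did not pass. Of 18 calcium genes, 6 were called higher, among them Plcb1 at 1.34, and 6 lower, among them the ryanodine receptor Ryr3 at -2.23.

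Of the 6 lineage factors, Olig1 (0.65), Olig2 (0.55) and Sox10 (0.33) were called higher and Myrf lower (-1.24), while Zfp488 (0.06) and Nkx6-2 (-0.06) did not pass. Of 8 OPC markers, Pdgfra, the PDGF receptor, was called higher at 0.61, and Cspg4 lower at -0.56. All 12 microglial markers were called, 7 higher and 5 lower, with Itgam at -1.58 and C1qb at 1.34, and their sums were 1192 and 948 CPM with the inhibitor against 1139 and 1060 CPM. Astrocyte markers summed to 399.7 and 444.1 CPM against 667.5 and 628.7 CPM, and of the 8 tested 1 was called higher, Gfap at 2.53, and 4 lower. The markers Gjb6 and Ntsr2 were at 0 in 1 or more OPC libraries, but Gjb6 did not exceed 0.375 CPM in the OL libraries either. Others of the list were present in control OPCs, with Slc1a3 at 404 and 376 CPM and Aldoc at 221 and 213 CPM. The part of these cell types in the rises of Fyn and Cd9 was not tested.

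Across the 5 groups the order of the means was the same for 5 of the 6 genes: OPC anti-miR-ctl, OPC anti-miR-145, OL miR-145, OL miR-145+miR-219 and OL miR-ctl, from lowest to highest. Itpr2 alone had its lowest mean, 95.8 ± 30 CPM (SD, n = 2), in OPC anti-miR-145, next to 106 ± 7.0 CPM in OPC anti-miR-ctl. The OL groups with and without miR-219 overlapped for all genes but Fyn, and the OPC groups overlapped for Enpp6 and Itpr2.

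Within the OL groups the 2 libraries of a group differed in the same direction for some of the genes. The library numbered 2 held more Enpp6 in all 3 OL groups, by 0.54 in miR-ctl, 0.62 in miR-145 and 0.56 in miR-145+miR-219 on the log2 scale of CPM plus 1. It held less Bcas1, with differences of -0.53, -0.34 and -0.12. The mean log2 level of the 14 mature myelin genes was also higher in the library numbered 2, at 7.88 against 6.78 in miR-ctl, 8.07 against 7.18 in miR-145 and 8.48 against 7.59 in miR-145+miR-219. The SD of Enpp6 in control OLs, 57.9 CPM on a mean of 220, holds this difference.

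Set against the mature myelin genes of the same library, the 6 genes were relatively lower after both mimics together, while miR-145 alone overlapped the control. The mean log2 level of the 6 genes exceeded that of the 14 myelin genes by 3.13 and 1.87 in the OL miR-ctl libraries, by 2.10 and 1.24 in OL miR-145 and by 1.77 and 1.01 in OL miR-145+miR-219. OL miR-145 overlapped OL miR-ctl, since the lower control library lay below the higher miR-145 library. The higher OL miR-145+miR-219 library, at 1.77, lay just under the lower control library, at 1.87. The OPC libraries ran from 1.81 to 2.38, within the range of the OL libraries. The mean log2 level of the 6 genes themselves was 9.91 and 9.76 in OL miR-ctl, 9.28 and 9.31 in OL miR-145, and 9.36 and 9.49 in OL miR-145+miR-219. Some of the 14 myelin genes were near the floor in the first control library, with Mal at 0.55 and Ermn at 0.80 CPM, which raises its difference. These values have no length correction and compare libraries, not genes.

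Over the 10 libraries, the genes whose pattern lay nearest to each of the 6 were found by the root mean square difference of log2(CPM + 1), each gene centred on its mean, among 9586 genes with a symbol and a mean of at least 10 CPM. The distances mostly reflect the difference between stages, which the libraries share. Enpp6 was nearest to the myelin genes Mag (0.38) and Cldn11 (0.45), which were higher in the OL libraries numbered 2. Unlike Enpp6 they were measurable in OPCs, with Mag at 9.22 and 9.21 CPM and Cldn11 at 7.32 and 8.06 CPM in the OPC anti-miR-ctl libraries. Mag, for instance, was at 623 and 1240 CPM in OL miR-ctl. Bcas1 was nearest to Mpzl1 (0.08), a receptor-like protein that is itself among the other premyelinating genes, and Fyn to Bcar1 (0.11), which is among its outputs. Itpr2 was nearest to Sesn3 (0.12), Cd9 to Lims2 (0.16) and Sirt2 to Dock6 (0.11).

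Over the 6 OL libraries alone, the pattern of Cd9 lay nearest to Sppl3 (0.03) and Sirt2 (0.04). Sirt2 and Fyn were also near each other (0.08), while Enpp6 lay farther from the other 5, at 0.31 to 0.47. The gene nearest to Enpp6 was then Cmtm7 (0.08), that nearest to Bcas1 was Cdk2 (0.04) and that nearest to Fyn was Ccdc107 (0.02).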

How the data were processed

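RNA of the 10 libraries was made into stranded mRNA libraries. Using Salmon 0.12.0 and GENCODE Rnor6.0 transcripts, then tximport in R, the authors obtained the estimated counts for each gene that they deposited, without normalization. Between 16.02% and 17.45% of a library's values were not whole, and counts were rounded. Gene names came from the authors' deposited DESeq2 table, which names 14561 of its 16129 genes, and its fold changes and p-values were not used. For the 266 symbols on more than 1 ID the counting is uncertain, and none of them is one of the 6 genes.

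Only the 4 libraries of a comparison entered its edgeR 4.0.16 fit (TMM, estimateDisp, glmQLFit, glmQLFTest, R 4.3.3). A gene was tested if 2 or more of them held 5 or more of its counts, with Benjamini-Hochberg adjustment over all genes tested. The SE is the log2 fold change over the square root of F, and intervals are 95%. DESeq2 1.42.0, other normalizations, filters and libraries were tried, and functions were tested on simulated data. Depth is ample except for Enpp6 in OPCs, and 2 libraries per group limit precision. Lists hold textbook genes, of which those not found by symbol were left out and some genes are not reported here. From longer lists at most the 2 genes of smallest p in each direction are named, lists of 7 or fewer are named whole where they bear on a member, and the 3 nearest patterns per gene were ranked. The 6 genes and the lists were chosen with earlier results of these data known. Figures used Python's matplotlib.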

Additional observations from a re-analysis of the deposited data

How the results depend on the processing

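Of 365 recomputed fold changes of the 6 genes, 339 kept their direction and side of the threshold, 19 passed it newly and 7 changed sign. For miR-145 alone against the control, edgeR called 0 of the 6 genes and 0 in all, whereas DESeq2 called 1 and 649, 1 fit of all 5 groups called 79 genes, and DESeq2 on all 10 libraries, chosen after seeing the data, called 4 of the 6 (Bcas1, Fyn, Cd9 and Sirt2) and 1128 in all. For both mimics against the control, where edgeR called 0, DESeq2 called 106 genes, no filter gave 1, and DESeq2 on all 10 libraries called 1 of the 6 (Fyn) and 203 in all. With and without miR-219, DESeq2 called 9 genes, and 7 on all 10 libraries. In the OPC comparison 1 fit of all groups called 2657 genes in place of 4348. The causes were not tested.

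A replicate block, a term for the replicate number, called 6 of the 6 genes and 2272 in all for miR-145 alone, 1 of the 6 (Enpp6) and 132 in all for both mimics, and 0 of the 6 and 184 in all between the mimic groups. Deviations of same-numbered libraries correlated at 0.403, 0.467 and 0.632 in these comparisons, at 0.0679 between stages and at -0.152 in OPCs. No label ties the numbers to a culture, and 2 libraries per group cannot decide it, so whether same-numbered libraries share a culture is not known. Crossed numbers in OPCs, chosen after seeing the data, called 4 of the 6 and 5536 genes in all.

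Leaving out a library gave 2 to 5 calls among the 6 genes in OPCs, with 5 without the second inhibitor library (Itpr2 then lower), and 2348 to 7133 genes in all. Between stages it gave 4780 to 10306 genes. Fold changes then ran from -0.57 to 0.040 for Itpr2 with both mimics against the control, and between the mimic groups from -0.12 to 0.56 for Enpp6, -0.079 to 0.19 for Cd9 and -0.0060 to 0.26 for Sirt2. In OPCs they ran from -0.48 to 0.15 for Itpr2 and from -0.074 to 0.87 for Enpp6. A minimum of 1 CPM left Enpp6 untested in OPCs. With CPM from total counts only, 13 of the 30 group means moved by over 1 SD, and 2 with DESeq2's size factors. Of 18 nearest patterns, 8 were the same genes with a pseudocount of 5 over 10 libraries and 11 over the OL libraries.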
